A study of Equus asinus with 3 samples.

Results

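The acrosome and sperm-egg fusion genes described here are 9 named features of a donkey (Equus asinus) single-cell RNA data set: IZUMO1, IZUMO4, ACR, ACRBP, SPACA1, SPACA3, SPACA4, SPACA7 and EQTN. They were taken by name from the 34266 features that occur in any of the libraries. All 9 were features of the testis library and of the library from the epididymis caput, the first segment of the sperm duct. In the library from the epididymis corpus, the segment after it, 8 were features and SPACA4 had no entry. Each library lists only features with at least 1 UMI (unique molecular identifier, a tag that marks 1 captured transcript), with 0 of 32140 corpus features at no UMI, so SPACA4 was taken as 0 UMIs there. ACRBP is carried in the files under a numbered locus name and was matched through the RefSeq gene table of the EquAss-T2T_v2 assembly.

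Testis, caput and corpus gave 1 library each, from a study of 3 sexually mature male donkeys of which the labels give no genotype, age or treatment. Which animal or animals stand behind a library is not stated. Tissue was stored for up to 48 h, digested at 37 °C for 15 min in 0.2% collagenase IV with DNase I, and made into libraries on a droplet platform. With 1 library per group no difference could be tested between animals, and every interval below covers counting error only.

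The acrosome is a secretory vesicle that spreads over the sperm nucleus while spermatids take shape, and its contents are released near the egg. Its enzymes and their binding proteins act on the layers around the egg, while proteins of its membranes and of the sperm surface take part in binding to the egg and in fusion. Male germ cells pass through meiosis as spermatocytes and are then round and later elongating spermatids, which condense their chromatin and stop transcription.

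The libraries held 47686179 UMIs in 8610 barcodes (testis), 13203203 in 9478 (caput) and 4142512 in 9611 (corpus), with medians of 4681, 1145 and 371 UMIs per kept barcode. Clusters were made without any gene of the acrosome list, named from marker lists, and set in order by the ratio of spermatid to spermatocyte markers. In testis 7357 of 8519 kept barcodes fell in 11 germ-like clusters, called positions 1 (earliest) to 11 (latest): 3 spermatocyte-like, 2 between stages, 4 round spermatid-like and 2 elongating spermatid-like. No cluster was named for spermatogonia, the cells before meiosis. Their markers summed to between 17.8 and 197 CPM (counts per 1e6 UMIs) over the testis clusters, with the highest value at position 11. Levels before the first position were therefore not described. The labels call the epididymis samples somatic cells, yet 254 of 9478 caput barcodes were germ-like, while no corpus cluster was. RNA of germ cells was also found in leukocyte clusters of the testis, where the 9 genes summed to 435 CPM in 29 T or NK-like and 1404 CPM in 18 macrophage-like cells, against 3220 CPM in spermatocyte-like and 4641 CPM in round spermatid-like cells.

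The genes fell into 2 patterns along the testis clusters. IZUMO4, ACR and ACRBP were already near their highest level in spermatocyte-like cells, while SPACA1, SPACA3, SPACA4, SPACA7, EQTN and IZUMO1 were low there and highest in the last round spermatid-like cluster. The genes are called early or later below by whether they were called higher in spermatid-like than in spermatocyte-like cells of this library, so sums over the 3 and the 6 describe that choice and test nothing. The 6 later genes gave 2.27% of the UMIs of all 9 at position 1, 39.0% at position 5, 67.6% at position 9 and 72.7% at position 10. At position 11, the 66 cells with the highest ratio of spermatid markers, the summed level of the 9 was lowest, with 514 CPM for the 3 early genes and 182 CPM for the 6 later ones. Both sums were below those of the 18 macrophage-like cells of the testis (966 and 438 CPM). They were above those of its 29 T or NK-like cells (290 and 145 CPM).

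**Figure D1:**
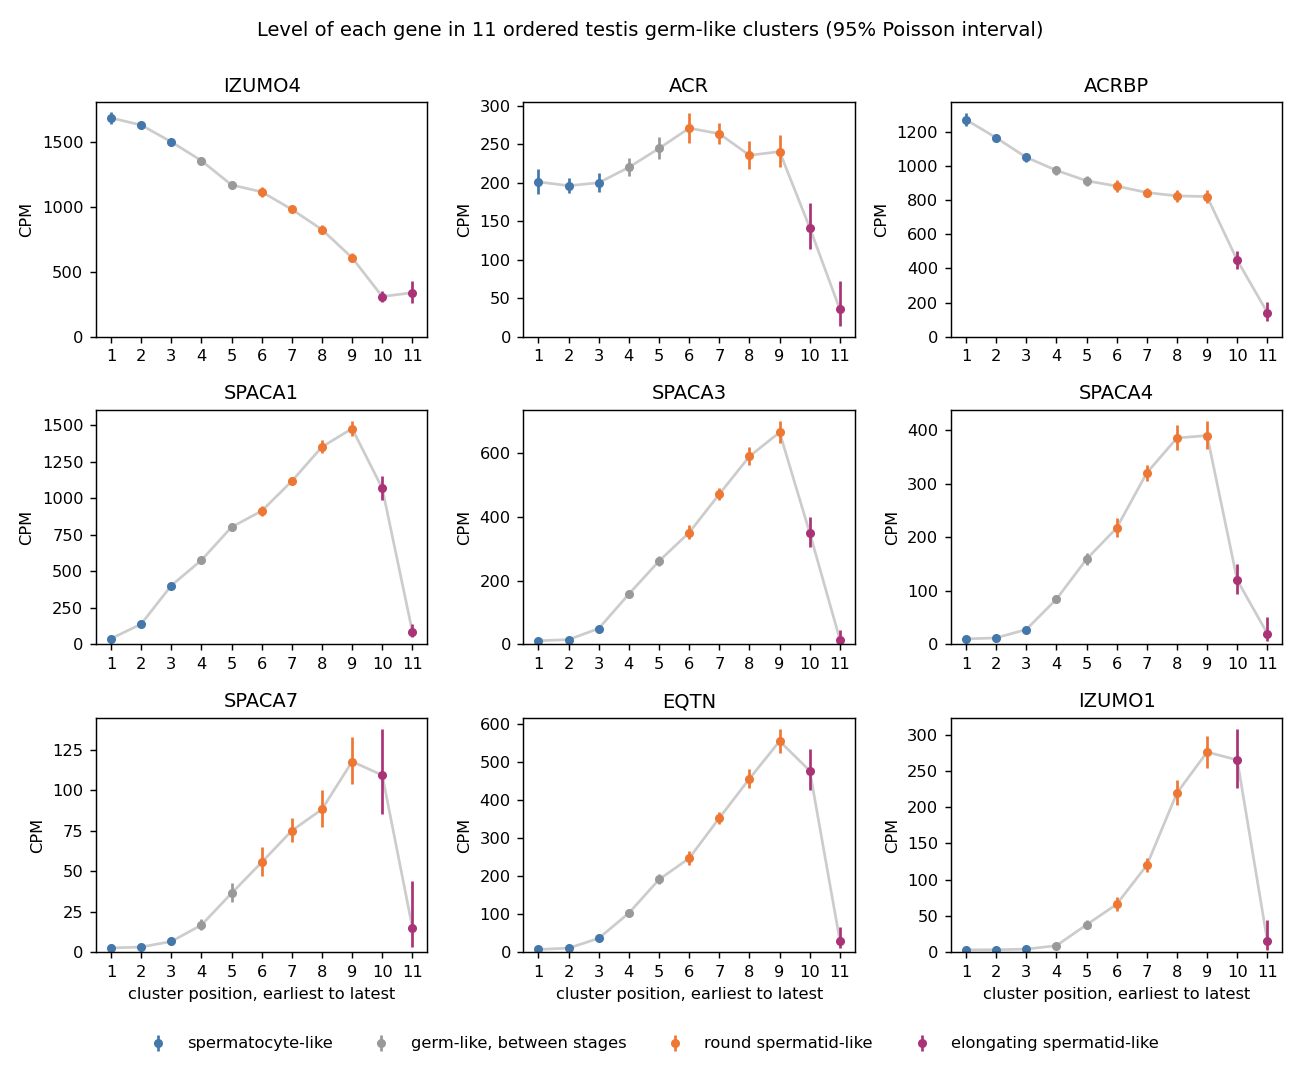
Level (CPM) of each of the 9 genes in the 11 ordered testis germ-like clusters, 1 panel per gene, with exact 95% Poisson intervals as bars. IZUMO4 and ACRBP are highest at position 1 (1683 and 1274 CPM), ACR stays between 196 and 271 CPM up to position 9, and the other 6 are highest at position 9.

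Among the early genes, ACR encodes acrosin, the serine protease that the acrosome stores as an inactive precursor. Its level was 201 CPM (95% interval from 186 to 218) at position 1 and 271 CPM at position 6, its highest. The intervals at positions 5, 7, 8 and 9 overlapped that at position 6, so ACR had no single peak among them. At positions 10 and 11 it was at 142 and 35.3 CPM.

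ACRBP encodes the protein that binds the acrosin precursor and, in mouse, holds it packed in the acrosome. It had 1274 CPM at position 1, 915 CPM at position 5, 822 CPM at position 9, 448 CPM at position 10 and 141 CPM at position 11. No other position overlapped the first, and each step from position 1 to position 11 was downward. Positions 1 to 3 lay close together on the marker ratio that set the order (log2 of -0.43, -0.37 and -0.32). With cells set in 5 equal bins along a marker ratio per cell, ACRBP was at 1090 CPM in bin 1 and 1094 CPM in bin 2. IZUMO4 was at 1468 and 1513 CPM in these bins. In the RefSeq table the ACRBP entry overlaps LPAR5, a lysophosphatidic acid receptor gene, and no source used here says whether counting used the strand. LPAR5 itself had 37.2 CPM in spermatocyte-like, 31.7 between stages, 27.6 in round and 20.1 CPM in elongating spermatid-like cells.

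IZUMO4, a member of the IZUMO family of sperm proteins, had the steepest decline of the 3 up to position 9. Its level was 1683 CPM at position 1, 1354 at position 4, 979 at position 7, 607 at position 9 and 308 CPM at position 10. The value at position 11, 338 CPM, was not below that at position 10, unlike those of the other 8 genes. IZUMO4, ACR and ACRBP together summed to 966 CPM in testis macrophage-like cells, against 898 CPM at position 10 and 514 CPM at position 11. The levels of IZUMO4 at these positions were therefore not read as expression.

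Among the later genes, SPACA1 encodes an acrosomal membrane protein that mouse sperm need for a normally shaped acrosome. It had 39.0 CPM at position 1, 139 at position 2, 402 at position 3, 802 at position 5 and 1476.5 CPM at position 9. It passed 25% of its highest level at position 3, where the other 5 were at 1.53% to 7.48% of theirs. Its levels at positions 1 and 2 were below that of the macrophage-like cells of the testis (237 CPM from 13 UMIs). The first (from 32.3 to 46.5 CPM) was also below that of the T or NK-like cells (58.0 CPM), and was not read as expression. The second (from 131 to 147 CPM) was above the first and above the T or NK-like level, and was read neither as background nor as expression.

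SPACA3 encodes an acrosomal protein related to lysozyme, and SPACA4 a lipid-anchored surface protein that in mouse takes part in binding to the egg coat. SPACA3 had 11.3 CPM at position 1, 158 at position 4, 351 at position 6 and 665 CPM at position 9. SPACA4 had 10.3, 84.4, 218 and 391 CPM at the same positions, and its value at position 8, 386 CPM, overlapped its highest. Both first passed 50% of their highest level at position 6, in the first round spermatid-like cluster.

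In the RefSeq table SPACA4 overlaps FAM83E, which showed a similar order of levels: 3.83 CPM in spermatocyte-like, 24.5 between stages, 50.002 in round and 14.2 CPM in elongating spermatid-like cells, against 17.0, 116, 324 and 96.8 CPM for SPACA4. Reads of the 2 genes cannot be told apart where they overlap if strand was not used. The same table places IZUMO1 and SPACA4 on the same chromosome with 9 genes between them. It has no entry for ACR or SPACA7, so overlaps of those with other genes could not be checked.

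SPACA7 encodes an acrosomal protein that is released during the acrosome reaction in mouse, and EQTN encodes equatorin, an acrosomal membrane protein. SPACA7 was at 2.58 CPM at position 1, 36.4 at position 5, 75.1 at position 7, 118 at position 9 and 109 CPM at position 10. EQTN was at 7.08, 191, 352, 554 and 476 CPM at those positions. Both first passed 50% of their highest level at position 7, and for both the interval at position 10 overlapped that at position 9.

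IZUMO1, the sperm surface protein that binds the egg receptor JUNO and is required for fusion in mouse, came last. It had 3.22 CPM at position 1, 8.957 at position 4, 65.97 at position 6, 120 at position 7, 219.5 at position 8 and 276 CPM at position 9. It first passed 50% of its highest level at position 8, and its level at position 10, 265 CPM, overlapped the highest. SPACA4, 9 genes away, was already at 82.1% of its highest level at position 7, where IZUMO1 was at 43.4%.

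These differences were summed over stages to compare round spermatid-like (2220 cells) with spermatocyte-like cells (2896 cells). A gene was called when both ends of the 95% interval of its ratio were past 2-fold and its higher class had at least 50 UMIs. By this rule 6 of the 9 genes were higher in round spermatid-like cells and 3 were in neither direction, against 31.9% of all 14603 features tested that were called higher. The median log2 ratio of the 9 was 4.25, against 0.10 over all features tested. With the elongating class added, the same 6 genes were called higher over spermatocyte-like cells (background 33.1% of 14976 features).

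IZUMO1 had the largest ratio, with 154 CPM in round spermatid-like cells against 3.59 CPM in spermatocyte-like cells, 43.0-fold (from 33.2 to 56.7). EQTN (384 CPM against 18.5 CPM), SPACA3 (502 against 25.8), SPACA7 (80.7 against 4.20) and SPACA4 (324 against 17.0) had ratios between 19.1-fold and 20.8-fold, with overlapping intervals. SPACA1 was at 1180.5 CPM against 208 CPM, 5.69-fold (from 5.48 to 5.90), below the intervals of the other 5. For 5 of these 6 genes the spermatocyte-like level was below that of the 18 macrophage-like cells (36.5 CPM from 2 UMIs for IZUMO1, 72.9 CPM for EQTN, 54.7 for SPACA3, 36.5 for SPACA4 and 237 for SPACA1). In the 29 T or NK-like cells IZUMO1 (14.5 CPM from 1 UMI) and SPACA3 (72.5 CPM) were also above it, SPACA1 was at 58.0 CPM, and EQTN and SPACA4 had 0 UMIs. SPACA7 had 0 UMIs in both leukocyte classes.

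The early genes differed by less than 2-fold between the same stages. ACR was at 256 CPM in round spermatid-like against 199 CPM in spermatocyte-like cells, a ratio of 1.29 (from 1.23 to 1.35). ACRBP was at 846 against 1149 CPM, a ratio of 0.74 (from 0.72 to 0.75), and IZUMO4 at 915 against 1595 CPM, a ratio of 0.57 (from 0.56 to 0.59). All 3 intervals excluded 1 but did not reach past 2-fold, so none of the 3 was called.

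Between elongating (185 cells) and round spermatid-like cells, 3 of the 9 genes were called lower and 0 higher, against 11.2% and 7.28% of 10823 features. The median log2 ratio of the 9, -0.88, was close to that over all features tested, -0.81. SPACA4 was at 96.8 CPM in elongating against 324 CPM in round spermatid-like cells, a ratio of 0.30 (from 0.24 to 0.37), and IZUMO4 at 315 against 915 CPM, a ratio of 0.34 (from 0.30 to 0.39). ACRBP was at 376 against 846 CPM, a ratio of 0.45 (from 0.40 to 0.50). Without the cluster at position 11, ACRBP was no longer called (0.53, from 0.47 to 0.60) and SPACA4 and IZUMO4 were. The 3 early genes summed to 808 CPM in elongating spermatid-like cells. This was below the 966 CPM of the 18 macrophage-like cells and above the 290 CPM of the 29 T or NK-like cells. With a leukocyte class on either side, what remained of IZUMO4 and ACRBP there was read neither as expression nor as background.

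The other 6 genes were not called between those stages. IZUMO1 was at 207 CPM in elongating against 154 CPM in round spermatid-like cells (1.34, from 1.14 to 1.56), and EQTN (0.97, from 0.86 to 1.09) and SPACA7 (1.08, from 0.84 to 1.37) had intervals that included 1. SPACA1 (0.71), SPACA3 (0.54) and ACR (0.46) lay below 1 with intervals that reached above 0.5. Without the last elongating spermatid-like cluster, IZUMO1 had a ratio of 1.72 (from 1.46 to 2.01). EQTN (1.24, from 1.10 to 1.39) and SPACA7 (1.36, from 1.05 to 1.73) then also lay above 1. With clusters made at resolution 2.0, EQTN lay below 1 (0.77, from 0.67 to 0.89). There IZUMO1 (0.98, from 0.79 to 1.20) and SPACA7 (0.90, from 0.66 to 1.20) had intervals that included 1. IZUMO1, EQTN and SPACA7 were not called in either setting.

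**Figure D2:**
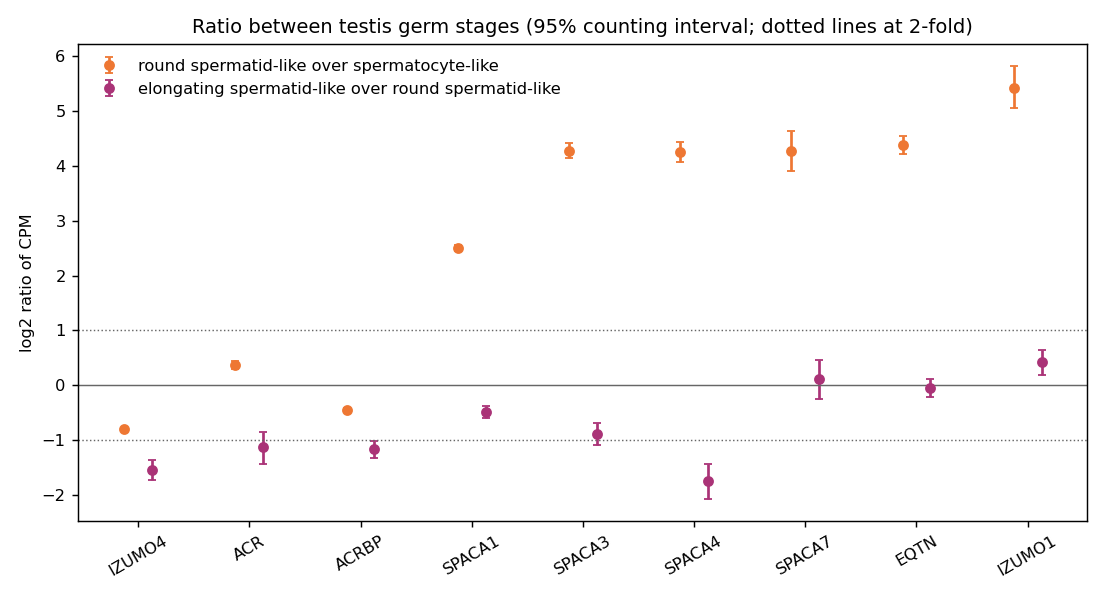
The log2 ratio of CPM for each of the 9 genes, round spermatid-like over spermatocyte-like (orange) and elongating over round spermatid-like (purple), with exact 95% intervals for counting error and dotted lines at 2-fold. In the first comparison 6 genes lie above 2-fold and IZUMO4, ACR and ACRBP within it, and in the second the whole intervals of IZUMO4, ACRBP and SPACA4 lie below 2-fold, while that of ACR crosses the line.

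Levels over the 11 clusters were compared as log2(CPM + 10), as a description of clusters that share 1 library. The early and later genes were told apart by their levels in these same clusters. Values within and between the sets therefore partly follow from that choice and test nothing. Pearson's r had a median of 0.93 over the 15 pairs of later genes (from 0.79 to 0.98) and of 0.85 over the 3 pairs of early genes (from 0.63 to 0.91). Between an early and a later gene it had a median of 0.01 (from -0.60 to 0.52, 18 pairs). The highest values, each 0.98, were those of IZUMO1 with SPACA7, SPACA3 with SPACA4, SPACA3 with EQTN, and SPACA7 with EQTN.

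The share of cells that carry each transcript was counted from the same UMIs and classes. Every testis cell was thinned to 2000 UMIs and shallower cells were left out (118 of 2896 spermatocyte-like, 98 of 2056 between stages, 51 of 2220 round and 13 of 185 elongating spermatid-like cells). Up to round spermatid-like cells the shares moved in the same direction as the levels. From round to elongating cells EQTN fell from 53.8% to 34.3% and IZUMO1 from 27.1% to 23.8%, the latter with overlapping intervals. Their ratios of CPM were 0.97 and 1.34. IZUMO4 was found in 94.0% of spermatocyte-like, 88.8% of between-stage, 79.1% of round and 45.3% of elongating spermatid-like cells, and ACRBP in 88.3%, 82.3%, 79.7% and 40.1%. SPACA1 was found in 32.9%, 72.6% and 89.6% of the first 3 classes and in 86 of 172 elongating spermatid-like cells, and IZUMO1 in 0.79%, 4.75%, 27.1% and 23.8% of the 4 classes. Without thinning, IZUMO4 was in 98.4% and IZUMO1 in 2.003% of spermatocyte-like cells. Round spermatid-like cells had the later genes SPACA3 in 63.6%, EQTN in 53.8%, SPACA4 in 45.8% and SPACA7 in 14.8% of cells. For IZUMO4 and IZUMO1 in that class the shares without thinning were 93.7% and 51.8%.

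Leukocytes, which should lack these transcripts, set the background for such shares. At this depth there were 20 T or NK-like and 15 macrophage-like cells, from clusters with medians of 2177 and 2968 UMIs. IZUMO4 was found in 5 and 6 of them and IZUMO1 in 1 and 2. The shares of spermatocyte-like cells with IZUMO1 (0.79%), SPACA3 (5.72%) and EQTN (3.35%) were at or below a leukocyte share (1 of 20 and 2 of 15 cells for IZUMO1, 2 of 20 and 1 of 15 for SPACA3, 0 of 20 and 2 of 15 for EQTN), and were read as background. The share of elongating spermatid-like cells with ACR, 14.5%, was read so too, against 3 of 20 and 3 of 15 leukocytes. The share of between-stage cells with IZUMO1, 4.75% (from 3.85% to 5.79%), was also below both leukocyte shares, which rest on 1 and 2 cells. It was above the 0.79% (from 0.50% to 1.20%) of spermatocyte-like cells at the same depth, and was read neither as background nor as expression. SPACA4 and SPACA7 were in 0 of 20 and 0 of 15 leukocytes, which allows shares of up to 15% and 20% when 3 cells are taken as the limit of a count of 0. The spermatocyte-like shares of both genes (3.74% and 0.97%) lie under these limits, and so do the shares of SPACA7 in between-stage (5.06%), round (14.8%) and elongating spermatid-like cells (13.4%). With so few leukocytes, these limits cannot separate such shares from background. The SPACA7 intervals in between-stage (from 4.13%), round (from 13.3%) and elongating cells (from 8.67%) lay above that in spermatocyte-like cells (up to 1.41%). Spermatocyte-like clusters had a median of 4881 UMIs per cell and round spermatid-like clusters 5271.

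UMIs of an early and of a later gene together were found in 40.4% of spermatocyte-like, 87.1% of between-stage, 96.0% of round and 48.3% of elongating spermatid-like cells at 2000 UMIs. In the leukocytes 1 of 20 T or NK-like and 3 of 15 macrophage-like cells had both. Early genes alone were found in 59.0% of spermatocyte-like and 22.1% of elongating spermatid-like cells, against 12 of 20 and 4 of 15 leukocytes, and later genes alone in 15.1% of elongating spermatid-like cells, against 3 of 20 and 2 of 15. These shares with 1 kind alone were below the T or NK-like share or within its counting interval, and were not read further.

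**Figure D3:**
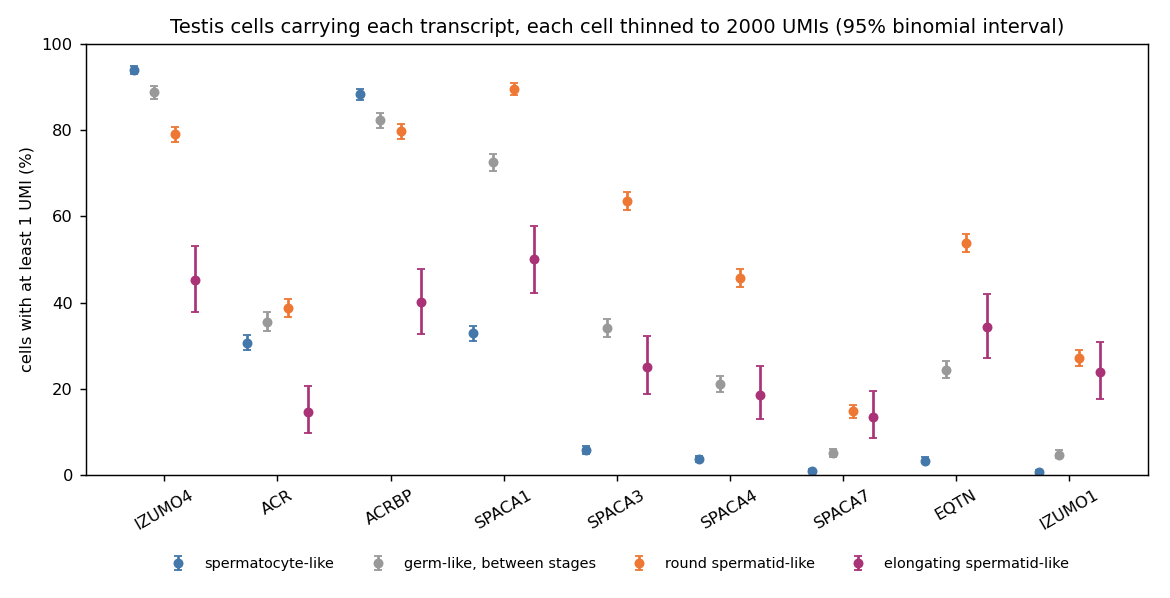
Share of testis cells (%) with at least 1 UMI of each gene after thinning each cell to 2000 UMIs, for the 4 germ-like classes in order of stage, with exact 95% binomial intervals. Shares of the 6 later genes are highest in round spermatid-like cells, those of IZUMO4 and ACRBP in spermatocyte-like cells, and all 9 point values are lower in elongating than in round spermatid-like cells, with overlapping intervals for SPACA7 and IZUMO1.

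The rest of the acrosome list, 74 further genes of acrosome building, egg binding and fusion of which 61 were features, was counted by the same rule. In round spermatid-like over spermatocyte-like cells 24 of 53 tested genes were higher, 3 were lower and 26 were neither, against 31.9% higher and 13.2% lower over all features, with a median log2 ratio of 0.38. In elongating over round spermatid-like cells 8 of 51 were higher and 8 lower, against 7.28% and 11.2% over all features, with a median of -0.49 against -0.81.

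Of the 6 genes with the most UMIs in testis, 4 were called in neither direction. DKKL1, an acrosomal protein, was at 3080.4 CPM in round spermatid-like against 3867 CPM in spermatocyte-like cells. SPESP1, a protein of the equatorial segment, was at 976 against 1179 CPM, DPY19L2, which in mouse ties the acrosome to the nucleus, at 720.1 against 923 CPM, and ZPBP, a binding protein for the egg coat, at 684 against 791 CPM. ADAM2, a sperm surface protein of the fertilin complex, was called lower at 348 against 736 CPM, as were the Golgi genes SPATA16 (153 against 334 CPM) and GBF1 (16.4 against 52.4 CPM).

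Among the 24 genes called higher, those with the largest ratios were SPACA6, TMEM81, PLCZ1 and IZUMO2. TMEM81 and SPACA6, which form a complex with IZUMO1 in other vertebrates, were at 67.7 against 1.16 CPM and 22.3 against 0.24 CPM (4 UMIs) in round spermatid-like against spermatocyte-like cells. IZUMO2 was at 120 against 2.74 CPM, 44.0-fold (from 32.7 to 60.6), and PLCZ1, the sperm phospholipase that starts calcium waves in the egg, at 238 against 4.80 CPM, 49.6-fold (from 39.7 to 62.8). TMF1, a Golgi protein needed for the acrosome in mouse and the sixth by UMIs in testis, was called higher at 859 against 95.8 CPM.

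In elongating over round spermatid-like cells, PRSS37, a serine protease-like protein, was at 467 against 3.42 CPM, SPPL2C, a protease of membranes, at 104 against 0.60 CPM, PRSS21 at 68.4 against 2.75 CPM and PLCZ1 at 742 against 238 CPM, all called higher. GOPC (50.7 against 327 CPM), TMEM81 (13.0 against 67.7), ADAM2 (73.2 against 348) and ZPBP (234 against 684) were lower.

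Across the libraries all 9 genes were highest in testis. They were called higher in testis than in caput (9 of 9, with 18.9% of 23384 features higher and 54.2% lower) and than in corpus (9 of 9, with 23.6% of 18620 features higher and 47.1% lower). IZUMO4 had 1248 CPM in testis, 64.9 CPM in caput and 3.38 CPM in corpus, ACRBP 968, 55.7 and 3.86 CPM, and ACR 218, 19.3 and 0.97 CPM. SPACA1 had 626 CPM in testis, 28.9 CPM in caput and 5.55 CPM in corpus, EQTN 166, 11.51 and 6.04 CPM, and IZUMO1 57.4, 3.41 and 0.48 CPM. SPACA3 had 217 CPM in testis, 19.5 CPM in caput and 18.6 CPM in corpus, and SPACA4 had 134 CPM in testis and 5.68 CPM in caput. A lower level over a whole library cannot be told apart from fewer cells that carry the transcript.

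SPACA7 had the smallest ratio of testis over caput, 34.1 against 9.16 CPM, 3.72-fold (from 3.09 to 4.51). The ratios of the other 8 ran from 11.1-fold for SPACA3 to 23.6-fold for SPACA4. Over corpus, the ratio was 369-fold for IZUMO4 (from 220.1 to 676) and 251-fold for ACRBP, against 11.7-fold for SPACA3 and 5.64-fold for SPACA7. SPACA4 had 6287 UMIs in testis and 0 in corpus, where 3 UMIs were taken as the limit, and was at least 185-fold higher in testis.

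**Figure D4:**
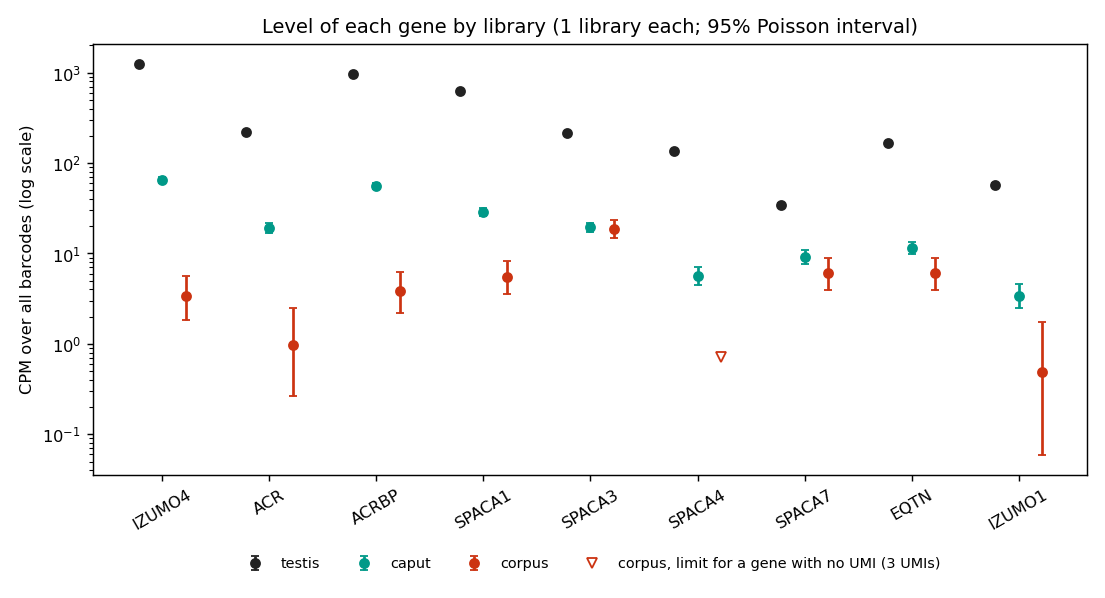
Level of each gene over all barcodes of the testis, caput and corpus libraries (CPM, log scale), with exact 95% Poisson intervals; the open triangle marks the level of 3 UMIs for SPACA4, which had none in corpus. Testis is highest for all 9 genes, and the caput and corpus values of SPACA3 lie together at 19.5 and 18.6 CPM.

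Between the epididymis segments, 5 of the 8 genes with enough UMIs were called higher in caput (background 7.03% of 17762 features), and 0 were lower (background 1.77%). IZUMO4 was at 64.9 CPM in caput against 3.38 CPM in corpus, 19.2-fold (from 11.4 to 35.3), ACR 19.999-fold (from 7.72 to 74.0), ACRBP 14.4-fold (from 8.83 to 25.4) and SPACA1 5.21-fold (from 3.42 to 8.32). SPACA4 had 75 UMIs in caput and 0 in corpus, at least 7.84-fold higher in caput. SPACA3 (1.05, from 0.81 to 1.37), SPACA7 (1.52, from 0.98 to 2.44) and EQTN (1.91, from 1.24 to 3.04) were not called, and IZUMO1 had 45 against 2 UMIs.

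A small number of caput barcodes carried most of these transcripts. The 254 germ-like barcodes, of 9478 kept in caput, held 1701 of the 2880 UMIs of the 9 genes, or 59.1% (from 57.2% to 60.9%). All 49 caput barcodes with 10 or more such UMIs were among them, while the highest corpus barcode had 3. Corpus had no germ-like cluster, so no such share could be given for its 186 UMIs.

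The caput germ-like barcodes formed 2 clusters. The cluster of 142 cells, which passed the marker fold for 19 late spermatocyte, 16 round and 12 elongating spermatid markers together, had IZUMO4 at 1006 CPM, ACRBP at 854, ACR at 291, SPACA1 at 306, SPACA3 at 95.4, EQTN at 85.4, SPACA4 at 53.6, IZUMO1 at 43.5 and SPACA7 at 18.4 CPM. The later genes made up 21.9% of its UMIs of the 9, between the 8.59% of spermatocyte-like and the 32.4% of between-stage cells in testis. Their levels in this cluster also lay between those of the same testis classes for SPACA1, SPACA3, SPACA4, SPACA7 and EQTN, while IZUMO1 was above both (3.59 and 21.2 CPM).

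The other caput cluster, 112 elongating spermatid-like cells with 9718 CPM of the transition protein TNP1, had between 5.75 and 92.0 CPM of each of the 9 genes. It also passed the marker fold for 6 luminal epithelial and 6 fibroblast markers, which summed to 6521 and 2007 CPM, and its elongating spermatid markers summed to 71270 CPM in the testis class against 36309 CPM in it. SPACA1 was at 838 CPM in elongating spermatid-like cells of testis against 92.0 CPM in those of caput, EQTN at 372 against 28.8 CPM, ACRBP at 376 against 57.5 CPM and IZUMO4 at 315 against 57.5 CPM. By the call rule 8 of the 9 were higher in testis (background 23.9% of 2758 features) and 0 lower (background 6.02%), on 1 to 16 UMIs per gene in caput, and ACR was not called. TNP1 was at 24526 CPM in the testis class, and whether the 2 classes hold the same stages was not tested.

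With the germ-like clusters left out, the 9 genes still had 1179 UMIs in caput. IZUMO4 (19.8 against 3.38 CPM), ACR (6.19 against 0.97) and ACRBP (17.4 against 3.86) were called higher in caput than in corpus, and 4 of 7 tested genes were not (background 4.96% higher and 1.69% lower). The elongating spermatid markers summed to between 233 and 328 CPM in the named somatic classes of caput with over 100 cells and in its long-gene class, against 23.7 to 144 CPM in the corresponding corpus classes. Late spermatocyte markers summed to between 415 and 522 CPM in those caput classes, against 205 to 334 CPM in corpus. Round spermatid markers were not higher throughout: they were at 117 CPM in caput against 195 CPM in corpus in T or NK-like and 102 against 114 CPM in macrophage-like cells. They were higher in caput in fibroblast-like (158 against 107 CPM), luminal epithelial-like (155 against 71.1 CPM) and long-gene barcodes (273 against 230.2 CPM). TNP1 was found in each of those caput classes and was at 0 UMIs in each named corpus class, with 5 UMIs in the corpus long-gene class. Fibroblast-like cells held 1297781 UMIs in corpus against 1033880 in caput. The other classes held fewer in corpus, such as 126613 against 4105682 in luminal epithelial-like cells, so a count of 0 there sets only a loose limit. The part of free germ-cell RNA in these levels was not tested.

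For SPACA3, SPACA7 and EQTN the 2 segments lay closer together. In each segment the largest class was unnamed and led by long genes, with 4067 barcodes in caput and 5022 in corpus. There SPACA3 was at 22.4 CPM in caput against 26.5 CPM in corpus (ratio 0.84, from 0.60 to 1.19), SPACA7 at 14.0 against 9.49 CPM (1.48, from 0.88 to 2.59) and EQTN at 11.47 against 10.5 CPM (1.09, from 0.65 to 1.90). IZUMO4 was at 16.3 against 0.999 CPM in the same class and was the 1 of 6 tested genes called higher in caput (background 4.13%). In the RefSeq table SPACA3 is 35885 bases long, ACRBP 19999, SPACA1 17080 and EQTN 13089. IZUMO1 is 3633 bases long, IZUMO4 2671 and SPACA4 598, and ACR and SPACA7 have no entry. Whether gene length bears on the levels in this class was not tested.

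The make-up of the 9-gene sum differed between classes accordingly. SPACA3, SPACA7 and EQTN gave 3.47%, 0.67% and 3.10% of it in the larger caput germ-like cluster, 10.4%, 5.22% and 5.77% in luminal epithelial-like cells, and 20.1%, 12.6% and 10.3% in the caput long-gene class. ZP3, an egg coat gene taken as one that should be near 0 in these tissues, had 25 UMIs in corpus. This was the same number as SPACA7 and as EQTN there, and more than any other of the 9 except SPACA3. In corpus as a whole SPACA3, SPACA7 and EQTN gave 41.4%, 13.4% and 13.4% of 186 UMIs, while IZUMO4 gave 7.53%, against 34.0% in the testis library. Of the 77 UMIs of SPACA3 in corpus, 53 were in the long-gene class.

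**Figure D5:**
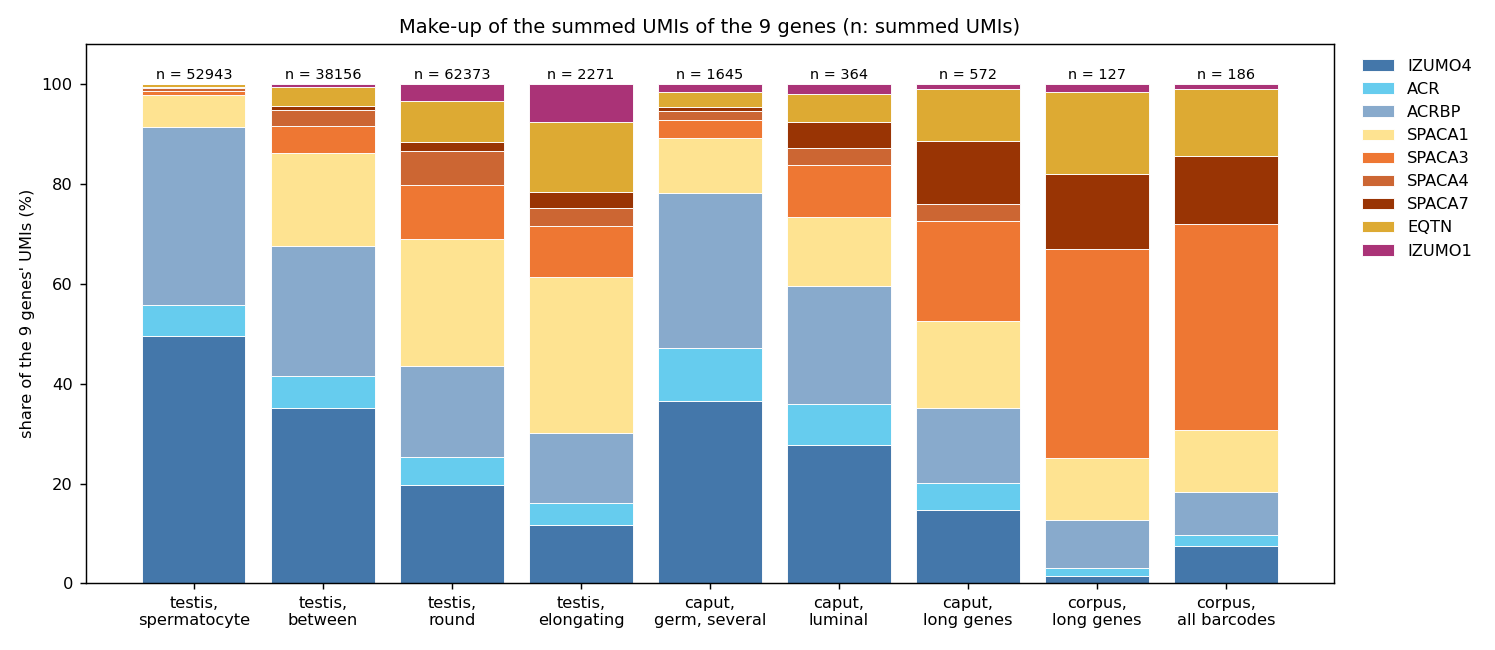
Share of each gene (%) in the summed UMIs of the 9 genes, for 4 testis stages in order, 3 caput classes, the corpus long-gene class and all corpus barcodes, with the summed UMIs above each bar. Blue shades are the early genes IZUMO4, ACR and ACRBP; SPACA3 grows to 41.7% in the corpus long-gene class, where IZUMO4 is at 1.57%.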

How the data were processed

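The deposited matrices hold raw UMI counts per feature and barcode, written by PISA 0.12 per the file headers. Cell Ranger 2.1.1 is named in the submitters' processing notes without its role. Aligner, genome build and strand setting: not given in the sources used here. Barcodes with at least 200 genes were kept. Doublets scored against simulated pairs were removed: 91 in testis (1.06%), and 0 in caput and corpus, where the caller did not work and doublets remain. Barcode names are serial numbers, so the 7441 (testis and caput), 7339 (testis and corpus) and 8957 (caput and corpus) names shared say nothing of shared cells. The features held no mitochondrial genes.

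Counts were scaled to 10000 per cell and log transformed. Leiden clustering (leidenalg 0.10.2, resolution 1.0) used 2000 variable genes outside the acrosome list, 30 principal components and 15 neighbours. A cluster was named with at least 3 markers at 2-fold or more over the median of the other clusters and a mean log2 of at least 0.5 over the list. Clusters with a mean log2 of at least 1.0 on a list of long genes stayed unnamed. These thresholds were set after the clusters were seen, and the genes and marker lists were chosen with earlier results of these data known. Classes are rebuilt from the counts, not the study's own.

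Counts were summed per class and given as CPM with exact Poisson intervals. Ratios carry exact conditional binomial intervals and shares Clopper-Pearson intervals, all at 95%. The ratio, interval and call were tested on simulated data. All 9 genes are named in the text. From the rest of the list, the 6 genes with the most testis UMIs and up to 4 called genes per direction and comparison are named. Promoter and protein sequences were not used here. Alternatives for cells, doublets, clustering, scaling and limits are given in the closing section.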

Additional observations from a re-analysis of the deposited data

How the results depend on the processing

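The choice of cells, doublet removal, variable genes, clustering resolution, scaling, UMI minimum, fold limit and depth was changed in turn. The count of the 9 genes called higher in round and in all spermatid-like over spermatocyte-like cells was 6 under each alternative run, and the caput share in germ-like clusters stayed between 59.0% and 59.2%. Over the 10 alternatives for the stage ratio, including 5 equal bins of cells along the marker index, log2 ratios of all spermatid-like over spermatocyte-like cells ran from 5.27 to 5.92 for IZUMO1, from 2.28 to 3.32 for SPACA1, from 3.64 to 5.03 for SPACA3, from 3.81 to 4.76 for SPACA4, from 3.72 to 4.77 for SPACA7, from 3.85 to 5.32 for EQTN, from 0.26 to 0.47 for ACR, from -0.55 to -0.34 for ACRBP and from -0.93 to -0.70 for IZUMO4. Scaling by the median ratio moved the median of all features from -1.69 to -0.45 for testis over caput and from -0.94 to 1.011 for testis over corpus, with 9 of 9 genes called higher in both. At a 4-fold limit 8 of 9 were called in each.

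The number of the 9 genes called lower in elongating spermatid-like cells was 3 at first, 5 at resolution 2.0 (ACR and SPACA3 added) and 0 at a 4-fold limit. ACRBP was not called without doublet removal or with more variable genes, and 2 genes were called when the 50 most abundant features were left out of the scaling. For the other listed genes, the 3 called lower in round and in all spermatid-like cells became 5 without doublet removal, 1 with median scaling and 0 at 4-fold. In all spermatid-like cells they were also 5 at resolution 0.5 and at 2.0. The 8 higher and 8 lower genes in elongating cells became 3 and 1 at 4-fold. The 5 genes called higher in caput than in corpus became 3 without the germ-like clusters and 1 in long-gene barcodes, both chosen after seeing the data, as were the comparison of elongating cells between testis and caput and the one without position 11. The 4-fold limit is a stricter rule by construction, and for the rest the cause was not tested. No paired analysis was possible because each group has 1 library. Depth limits corpus most, where 1 UMI is 0.24 CPM.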

Other observations

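The testis also held 2 clusters led by long genes, left out of the stages above. In the 80 cells of the cluster with 9 round spermatid markers, IZUMO4 was at 770.0 CPM, ACRBP at 587, SPACA1 at 1175, SPACA3 at 387 and IZUMO1 at 107 CPM. In the 530 cells of the cluster with 6 spermatocyte markers, IZUMO4 was at 1225 CPM, ACRBP at 916, SPACA1 at 223, SPACA3 at 38.9 and IZUMO1 at 8.23 CPM. The intervals of these 5 genes were apart between the 2 clusters, while those of ACR overlapped (192 CPM in the first and 179 CPM in the second). No call was made on them. Also left out of the stages were 3 testis clusters of 505 cells that stayed unnamed as mixed. They held 4.48% of the testis UMIs of the 9 genes. The leading genes of 1 of them included TNP2, PRM2 and TNP1, as did those of position 11.

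The 3 features most like each gene over the 11 testis clusters, among those with at least 500 UMIs and outside the 9, had Pearson's r between 0.989 and 0.998. They were TMEM247, SRR and TMEFF1 for IZUMO1, ELOVL2, FKBP6 and RSL1D1 for IZUMO4, MRPS21, BRDT and WASL for ACR, and LUC7L, MRPL11 and NDUFC1 for ACRBP. For SPACA1 they were PPIL6, ZSCAN23 and HNRNPAB, for SPACA3 SPATA45, ANKRD61 and EFCAB9, and for SPACA4 ZNF831, MORC3 and LYZL6. For SPACA7 they were C17H11orf94, TMC7 and CCDC183, and for EQTN HMGB3, TEX29 and RAB21. LYZL6 and TEX29 are among the round spermatid markers that named the clusters. None of these features is on the acrosome list. The clusters share 1 library, and with 11 points and many features values this high are a description only.

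Genes of the egg side, taken as transcripts that should be at or near 0, reached up to 6.04 CPM in the 3 libraries. IZUMO1R, which encodes JUNO, had 5 UMIs in testis, 2 in caput and 3 in corpus. ZP3 had the most of the egg coat genes, with 74 UMIs (1.58 CPM) in testis, 57 (4.32 CPM) in caput and 25 (6.04 CPM) in corpus.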
